A study of Danio rerio with 24 samples.

Results

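The genes described here encode 5 enzymes that make NADPH or recycle sugars for the route that makes it, together with glutathione reductase, which uses NADPH. They are *PGD* (ENSDARG00000015343), *TKT* (ENSDARG00000029689), *TALDO1* (ENSDARG00000103369), *ME1* (ENSDARG00000053215), *IDH1* (ENSDARG00000025375) and *GSR* (ENSDARG00000019236), which makes 6 of the 35117 gene identifiers counted. *PGD* was taken by its identifier and the others were found by symbol, and each symbol belonged to 1 identifier in the table of gene names. The set was chosen by the levels of *PGD* and *GSR* in these libraries, which were higher in larvae kept in THC than in their solvent controls at 96 hours post-fertilisation (hpf), and by the pathway of the other genes. For these genes the comparison of THC with DMSO at 96 hpf is therefore a description with no test. Tests are given for the CBD groups, the embryos and the stages of the DMSO group. Those of CBD at 96 hpf share THC or DMSO larvae with the choice and are not independent of it.

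NADPH is the electron donor of reductive synthesis and of defence against oxidants. In the oxidative branch of the pentose phosphate pathway, 6-phosphogluconate dehydrogenase (*PGD*) makes NADPH, and transketolase (*TKT*) and transaldolase (*TALDO1*) return the pentose carbons to glycolysis. Cytosolic malic enzyme (*ME1*) and cytosolic isocitrate dehydrogenase (*IDH1*) make NADPH from malate and isocitrate, and glutathione reductase (*GSR*) uses it to turn glutathione disulfide back into glutathione. In mice, *Pgd*, *Tkt*, *Taldo1*, *Me1* and *Gsr* are known targets of the stress factor Nrf2.

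Zebrafish of the line Tg(fli1:egfp), a reporter line in which fli1, an endothelial gene, lends its promoter to green fluorescent protein, were raised in DMSO (the solvent), THC or CBD. Whole embryos were taken at 10 hpf and whole larvae at 96 hpf, with 4 RNA sequencing libraries for each of the 6 groups and the transgene in all of them. The series asks what the cannabinoids do to development. THC and CBD share their atoms, and the pyran ring that is closed in THC is open in CBD, which bears a further hydroxyl group. The sources used here give neither doses nor the number of animals behind a library, nor whether libraries came from separate clutches, and p-values therefore measure the spread between libraries, which may be technical.

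Totals were 14879976 to 29641377 counts in 23 libraries, and DMSO library 4 of 10 hpf held 125926, 153.3 times fewer than the median of the other embryos. The common biological coefficient of variation was 0.195 in the larvae and 0.476 in the embryos. In the DMSO groups 15 of 15 hepatocyte markers and 9 of 9 skeletal muscle markers were higher at 96 than at 10 hpf in edgeR's quasi-likelihood test (Benjamini-Hochberg adjustment over all genes, threshold 0.05), by which 42.7% of all genes tested were higher and 34.4% lower. Of 5 stage markers, *nanog*, *pou5f3*, *tbxta* and *he1.1* were lower and *MYOG* was higher by the same test. The fall of *he1.1* rests on DMSO library 1 of 10 hpf, with 1307 counts. The other DMSO embryo libraries had 0 to 26 counts and the DMSO larvae 7 to 45. Levels below are CPM, counts set against library size after scaling by trimmed mean of M values within a stage. They are not divided by transcript length, so that levels are compared between samples and not between genes. In whole animals, fewer cells of a type and less RNA per cell cannot be told apart.

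*PGD* and *GSR* had the same order of levels in the larvae, lowest in DMSO, intermediate in CBD and highest in THC, with no overlap between neighbouring groups. Their THC and DMSO levels were used to choose them, which favours CBD values in between, so that nothing is read from this order. *IDH1* had that order of means, but its CBD libraries overlapped both neighbours. *TKT*, *TALDO1* and *ME1* overlapped between all groups. All 6 genes passed the filter on low counts in the larvae, and all but *ME1* did in the embryos.

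**Figure D1:**
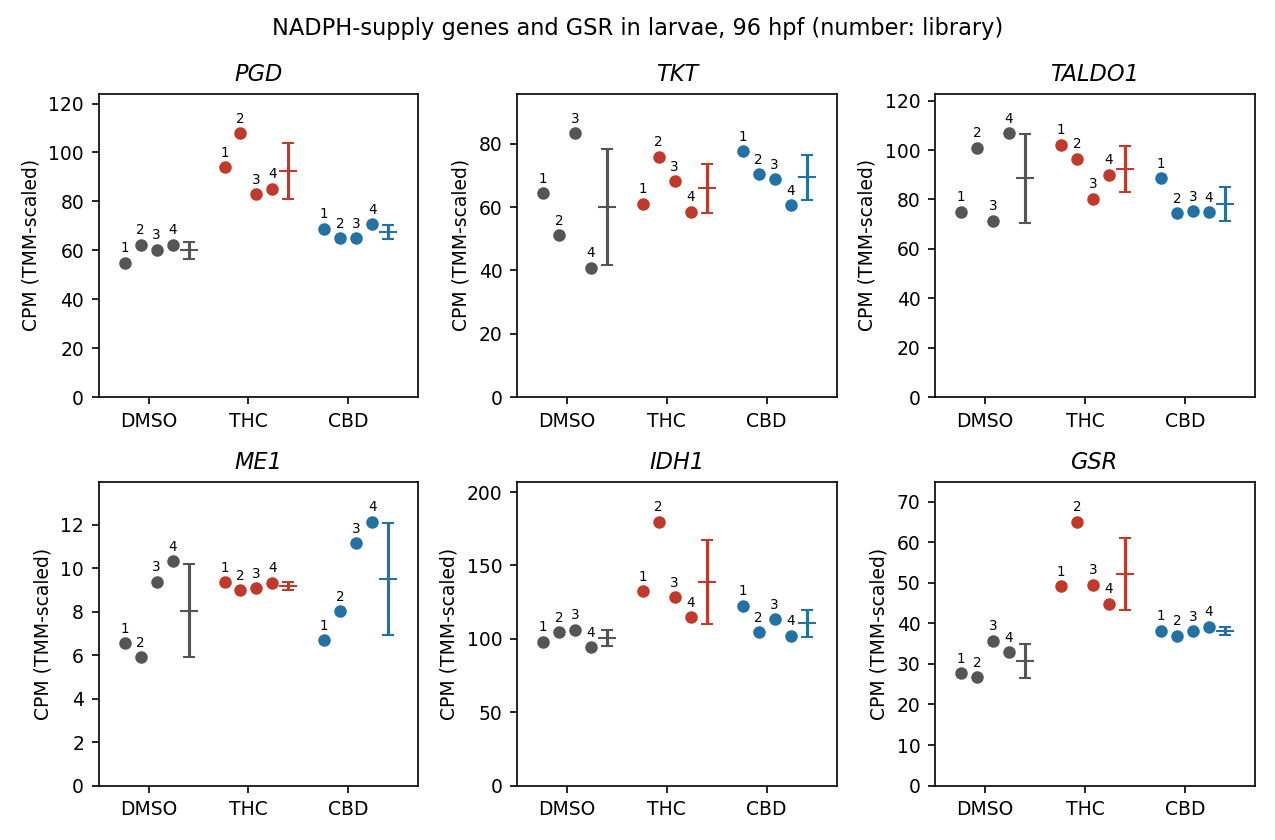
Level in CPM (y axis, from 0) of the 6 genes in the 12 larval libraries by treatment (x axis). Numbered points are libraries, and bars are the mean ± SD of 4. *PGD* and *GSR* are ordered DMSO, CBD, THC without overlap, and THC library 2 is the highest for both and for *IDH1*. *PGD* and *GSR* were chosen by their THC and DMSO levels in these larvae.

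In the oxidative branch, *PGD* stood at 55.0, 62.3, 60.3 and 62.3 CPM in DMSO libraries 1 to 4. It stood at 93.9, 107.9, 82.9 and 85.2 CPM with THC and at 68.8, 65.0, 65.1 and 70.7 CPM with CBD. The THC libraries were above all others by more than the range of the DMSO group, and the CBD libraries lay in a narrow band just above DMSO. The group means were 60.0 ± 3.46 CPM in DMSO, 92.5 ± 11.3 in THC and 67.4 ± 2.81 in CBD (SD, n = 4). The mean in THC was 54.2% higher than in DMSO by the fitted log2 fold change of 0.62 (SE 0.0978). Between CBD and DMSO the log2 difference was 0.17, with a 95% interval from -0.04 to 0.38 and an adjusted p of 0.9998 in edgeR's quasi-likelihood test.

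Between THC and DMSO larvae, *H6PD*, an enzyme of the oxidative branch inside the endoplasmic reticulum, differed by 0.01 on the log2 scale (SE 0.173), and *PGLS*, the lactonase that makes the substrate of *PGD*, by -0.03 (SE 0.147). Over the 9 tested genes of a list of other enzymes of the pathway and its sugar phosphates, 0 passed the threshold and the median log2 fold change was 0.01, equal to the 0.01 of all 21409 genes tested. The list's values are in the plot of gene lists.

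In the non-oxidative branch, *TKT* stood at 64.4, 51.2, 83.4 and 40.9 CPM in DMSO, at 61.1, 75.9, 68.2 and 58.5 CPM with THC and at 77.6, 70.5, 68.8 and 60.6 CPM with CBD. The DMSO libraries alone spanned more than the THC and CBD libraries together. The log2 differences were 0.14 (SE 0.177) for THC against DMSO and 0.21 (interval -0.17 to 0.59, adjusted p = 0.9998 by edgeR) for CBD against DMSO. The table of names ties *TKT* to 1 identifier, while zebrafish carry the paralogs *tkta* and *tktb*. Which of them it is was not given, and the other was not analysed here.

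*TALDO1* stood at 75.0, 101.0, 71.4 and 106.9 CPM in DMSO, at 102.2, 96.5, 80.4 and 90.1 CPM with THC and at 88.6, 74.5, 75.2 and 74.9 CPM with CBD. DMSO libraries 2 and 4 were high and libraries 1 and 3 low, and both other groups fell inside their range. The fitted difference was 0.06 (SE 0.135) for THC and -0.18 (interval -0.47 to 0.11, adjusted p = 0.9998 by edgeR) for CBD against DMSO. The 2 DMSO libraries highest for *TALDO1* were the lowest 2 for *TKT*. The summed level of 15 hepatocyte markers split the DMSO group the same way, with 11370 and 11644 CPM in libraries 2 and 4 and 7437 and 8052 CPM in libraries 1 and 3. The same sum ranged over 1292 to 4193 CPM in the embryos, so that it is not particular to larvae. Its part in the values of *TALDO1* and *TKT* was not tested.

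Among the other makers of cytosolic NADPH, *IDH1* stood at 98.03, 104.7, 106.1 and 94.5 CPM in DMSO, at 132.4, 179.9, 128.2 and 114.8 CPM with THC and at 122.5, 104.4, 113.2 and 102.1 CPM with CBD. All THC libraries exceeded all DMSO libraries, and THC library 2 was far above the other 3. This library, also the highest for *PGD* and *GSR*, had 1079 CPM in the sum of 9 intestine markers, against 646.2 to 772.9 CPM in the other THC libraries. Its sum of 9 skeletal muscle markers was also the highest in THC (57674 CPM). Its sums of 6 erythroid markers (543.8 CPM) and of 3 markers of the reporter tissue (156.6 CPM) were the lowest. Its sum of 15 hepatocyte markers (11671 CPM) was within the range of the others. The part of these markers in its values was not tested. The fitted log2 difference of *IDH1* between THC and DMSO was 0.46 (SE 0.127), and 0.31 without THC library 2. Between CBD and DMSO it was 0.13 (interval -0.14 to 0.41, adjusted p = 0.9998 by edgeR).

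*ME1* was at a low level throughout, with 5.91 to 10.3 CPM in DMSO, 8.99 to 9.35 CPM with THC and 6.69 to 12.1 CPM with CBD. The THC libraries hardly differed from one another, while libraries 3 and 4 were higher than libraries 1 and 2 in DMSO and in CBD. The means were 8.04 ± 2.14, 9.18 ± 0.180 and 9.497 ± 2.57 CPM (SD, n = 4), and the log2 differences from DMSO were 0.19 (SE 0.208) with THC and 0.24 (SE 0.207, adjusted p = 0.9998 by edgeR) with CBD.

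*GSR*, the gene of the NADPH-consuming step, stood at 27.7, 26.8, 35.7 and 32.9 CPM in DMSO, at 49.1, 65.1, 49.5 and 44.8 CPM with THC and at 38.1, 37.0, 38.1 and 39.2 CPM with CBD. Each THC library was above each CBD library, and each CBD library above each DMSO library. The means were 30.7 ± 4.25, 52.1 ± 8.89 and 38.1 ± 0.903 CPM (SD, n = 4). The fitted mean in THC was 69.6% above that in DMSO (log2 fold change 0.76, SE 0.126). With CBD it was 23.96% above DMSO, a log2 difference of 0.31 with an interval from 0.04 to 0.58 and an unadjusted p of 0.0272, which did not pass adjustment over all genes (adjusted p = 0.9998, edgeR).

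Between THC and DMSO at 96 hpf, 3 of the 6 genes had THC libraries all above DMSO libraries, against 1.18% of all genes tested, and 1 (*PGD*) passed the threshold in edgeR, against 0.0514% (11 genes, all of them higher). The choice of the genes used this contrast, so that nothing is read from these shares or from the call of *PGD*, which was lost on leaving out any library but THC library 4 or DMSO library 3. Between CBD and DMSO, *PGD* and *GSR* (2 of 6) had all CBD libraries above all DMSO libraries, against 0.878% of all genes. This second comparison shares its DMSO larvae with the one used for the choice, so that it is not independent of the choice. By edgeR 0 of 6 and 0 of 21409 genes (0%) passed the threshold there, with 410 genes at an unadjusted p under 0.05 and 0 genes by DESeq2 and by limma voom. The median log2 difference of the 6 genes was 0.33 for THC and 0.19 for CBD, and that of all genes 0.01 for both.

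CBD and THC were compared directly at both stages, which gives 3 pairs of groups at each stage with those against DMSO. At 96 hpf *PGD* was lower with CBD than with THC by 27.1%, a log2 difference of -0.46 with an interval from -0.67 to -0.25. *GSR* was lower by 26.9% (-0.45, interval -0.72 to -0.18) and *IDH1* by 20.4% (-0.33, interval -0.60 to -0.06). Adjusted over all genes in edgeR, p was 0.633 for *PGD* and 0.9999 for *GSR* and *IDH1*, so that none of the 3 passed. DESeq2's Wald test gave *PGD* an adjusted p of 0.0100. The CBD libraries were all below the THC libraries for 2 of 6 genes, *PGD* and *GSR*, against 1.13% of all genes. The THC larvae are those of the contrast used for the choice, which favours lower values with CBD for *PGD* and *GSR*. *IDH1* was taken by its pathway, but the whole set was chosen with results of that contrast known. Nothing is therefore read from this share or from the intervals and p-values of *PGD*, *GSR* and *IDH1*. The remaining genes differed by -0.24 (*TALDO1*, interval -0.53 to 0.05), 0.07 (*TKT*, interval -0.31 to 0.45) and 0.05 (*ME1*, interval -0.39 to 0.49). In this comparison 0 of 21409 genes (0%) passed in edgeR, 540 had an unadjusted p under 0.05, DESeq2 called 14 and voom 3.

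**Figure D2:**
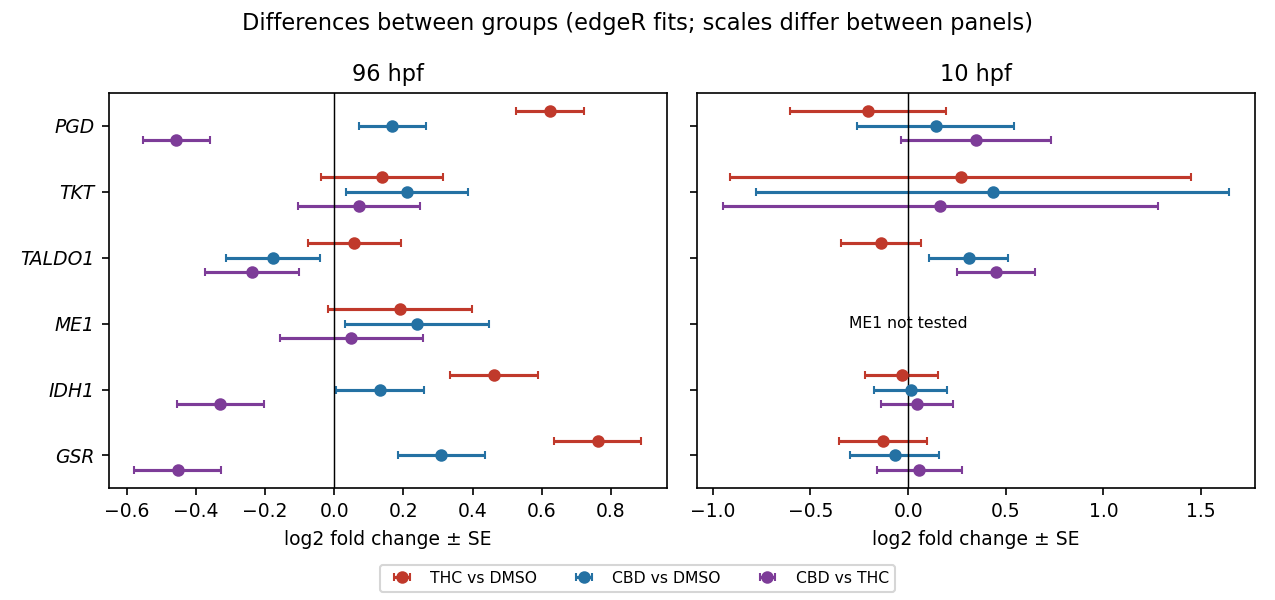
Fitted log2 fold change ± SE (x axis) of each gene (y axis) for the 3 pairs of groups at 96 hpf (left) and 10 hpf (right), on different scales. At 96 hpf *PGD*, *IDH1* and *GSR* are highest with THC and lie between DMSO and THC with CBD, and at 10 hpf the bars of all tested genes include 0 except those of *TALDO1* in both comparisons of CBD. *PGD* and *GSR* were chosen by their THC and DMSO levels at 96 hpf.

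The larval libraries 1 and 2 and the larval libraries 3 and 4 gave differences of unequal size. From the means of the libraries, the log2 ratio of THC to DMSO was 0.78 in libraries 1 and 2 and 0.46 in libraries 3 and 4 for *PGD*, 1.07 and 0.46 for *GSR*, and 0.62 and 0.28 for *IDH1*. Of CBD to DMSO it was 0.19 and 0.15 for *PGD* and 0.47 and 0.17 for *GSR*. The sign was the same in both pairs of libraries for these 3 genes. For the ratios given this was fixed in advance, since the groups compared did not overlap and any split keeps the sign. Nothing is therefore read from it. For THC to DMSO it turned in *ME1* (0.56 and -0.10) and in *TALDO1* (0.17 and -0.07), and for CBD to THC in *ME1* (-0.32 and 0.34). No label explains the split, and it was known from earlier results of these data.

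Library by library, *PGD*, *GSR* and *IDH1* followed one another in the larvae. Pearson's r of log2 CPM over the 12 larval libraries was 0.93 between *PGD* and *GSR* and 0.88 between *PGD* and *IDH1*, and over the deviations from the group means it was 0.68 and 0.71. These values describe libraries that share treatment groups, and the levels of *PGD* and *GSR* in the THC and DMSO larvae among them chose both genes. In the 12 embryo libraries, the shallow one included, *GSR* did not follow *PGD* or *IDH1*. There r was -0.46 between *PGD* and *GSR*, -0.24 between *GSR* and *IDH1* and 0.50 between *PGD* and *IDH1*. Over the deviations from the group means it was -0.49, -0.25 and 0.50. In the larvae *TALDO1* reached 0.42 with *PGD*, *ME1* 0.27 and *TKT* 0.17. Between *TALDO1* and *TKT*, both of the non-oxidative branch, r was -0.61 over all larval libraries and -0.64 within groups. They ran opposite in DMSO, where libraries 2 and 4 were high for *TALDO1* and low for *TKT*. This did not hold in CBD, where library 1 was the highest for both (88.6 and 77.6 CPM), and THC showed no clear order.

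**Figure D3:**
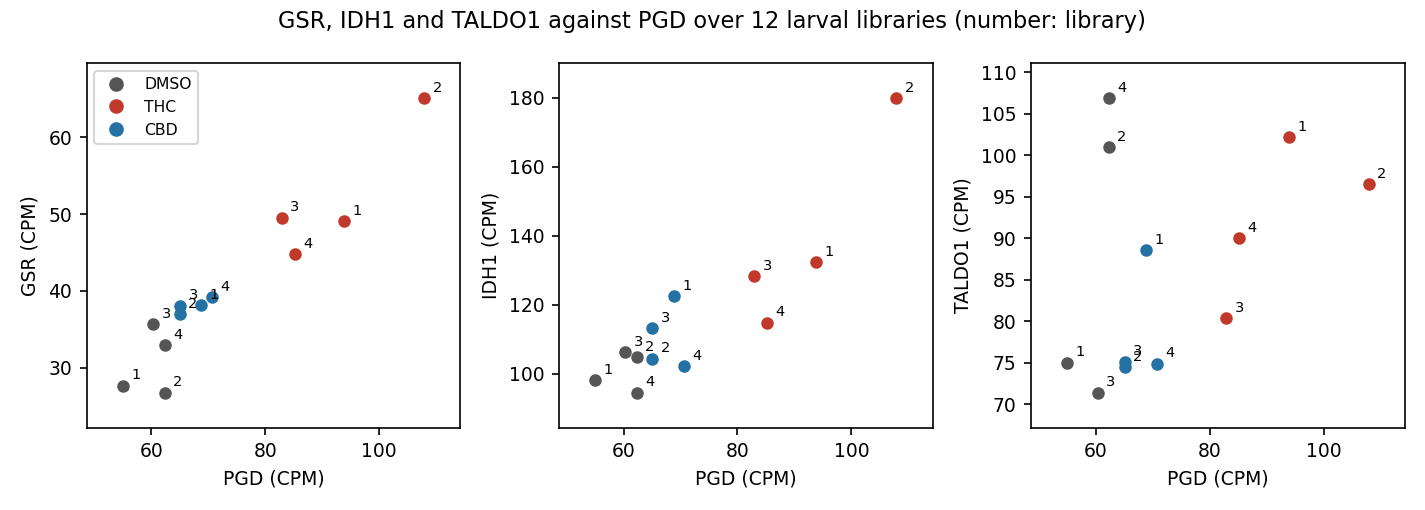
Level of *GSR*, *IDH1* and *TALDO1* (y axes, CPM) against that of *PGD* (x axes, CPM) in the 12 larval libraries, coloured by treatment and numbered by library. *GSR* and *IDH1* increase with *PGD* and THC library 2 is at the top of both, while *TALDO1* is spread out in DMSO.

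The likeness of other genes to *PGD* and *GSR* was taken over the same 12 libraries, so that the choice of both genes bears on the ranks and nothing is supported with them. Among 17836 named genes with a mean of at least 1 CPM in larvae, *GSR* ranked 9 and *IDH1* ranked 33 by likeness to *PGD*, against 1901 for *TALDO1*, 3812 for *ME1* and 5661 for *TKT*. The 6 genes most like *PGD* were *gstp1.2*, a glutathione transferase (r = 0.95), *ptgr1.2*, a prostaglandin reductase (0.95), *cbr1l*, a carbonyl reductase (0.95), *ABCC12*, a transporter of the ABC family (0.94), *tpmt.2*, a thiopurine methyltransferase (0.94), and *AIFM2*, a quinone reductase (0.94). The first of them stood at 478.8 ± 65.6 CPM in DMSO, 994.2 ± 305.6 in THC and 507.5 ± 27.9 in CBD. The 6 most like *GSR* were *SLC22A18*, a solute carrier (r = 0.96), *nfe2l2b*, a zebrafish counterpart of NRF2 (0.95), *ABCC12* (0.95), *aifm4* (0.95), *ABCD3*, a peroxisomal transporter (0.95), and *CANT1*, a nucleotidase (0.94). *PGD* ranked 9 by likeness to *GSR*, and *IDH1* ranked 50.

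Of 16 tested genes on a list of other NADPH sources, 0 passed the threshold between THC and DMSO in the larvae, 9 had a positive log2 fold change and the median was 0.03. Of all genes tested in this comparison, 52.8% had a positive fold change and 0.0514% passed. *ALDH1L1*, a folate enzyme that makes NADPH, stood highest, with 102.9 ± 8.80 CPM in THC and 74.1 ± 12.5 in DMSO (0.47, SE 0.140, adjusted p = 0.820 by edgeR). The mitochondrial relatives of the genes described here lay near 0, with 0.03 (SE 0.138) for *IDH2*, 0.05 (SE 0.116) for *ME2* and -0.07 (SE 0.0891) for *ME3*. *NNT*, the transhydrogenase of the inner mitochondrial membrane, differed by 0.04 (SE 0.0877).

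On the side of NADPH use, 0 of 22 tested genes of the glutathione cycle passed between THC and DMSO, 14 had a positive fold change and the median was 0.12. The 3 with the smallest p make glutathione. *GCLC*, the catalytic subunit of the first step, stood at 49.3 ± 2.74 CPM in THC and 36.5 ± 3.57 in DMSO, a difference of 0.44 (SE 0.0921, adjusted p = 0.215 by edgeR). *GSS*, of the second step, differed by 0.55 (SE 0.190) and *GCLM*, the modifier subunit of the first, by 0.34 (SE 0.120), both at an adjusted p of 0.99999 in edgeR. Among 13 thioredoxin and peroxiredoxin genes 0 passed, with a median of 0.07 and the largest value in *prdx1* (1.11, SE 0.205, adjusted p = 0.109 by edgeR). This *prdx1* is ENSDARG00000058734, and the list also holds *PRDX1* under ENSDARG00000025350. Among 18 genes of NADPH-consuming lipid synthesis 0 passed (median 0.12), among 31 of glycolysis 0 (median 0.06) and among 14 of the citrate cycle 0 (median 0.01).

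Of 16 tested genes of the Nrf2 pathway outside the set, 13 had a positive fold change with THC, the median was 0.30 and 1 passed the threshold, *UGDH*, which makes UDP-glucuronate (0.92, SE 0.0897, adjusted p = 0.00140 by edgeR), against 52.8% positive and 0.0514% called among all genes. The list was chosen with earlier results of these data known, so that nothing is read from these shares. For CBD against DMSO, 0 genes passed on any of these lists, and the median was 0.06 for the Nrf2 pathway, -0.02 for the glutathione cycle, 0.03 for the other pentose phosphate enzymes and -0.03 for the other NADPH sources. Markers of liver and gut were measured beside them. Of 15 hepatocyte markers 0 passed with THC, 14 had a positive fold change and the median was 0.27. Their summed level ranged over 7437 to 11644 CPM in DMSO, 10122 to 11748 in THC and 8257 to 10002 in CBD, with 0 of 15 markers at 0 in any larval library. For 9 intestine markers the sum ranged over 415.4 to 653.1, 646.2 to 1079 and 601.9 to 682.1 CPM, 7 were positive with THC (median 0.37) and 0 passed. The part of these markers in the values of *PGD*, *GSR* and *IDH1* was not tested.

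**Figure D4:**
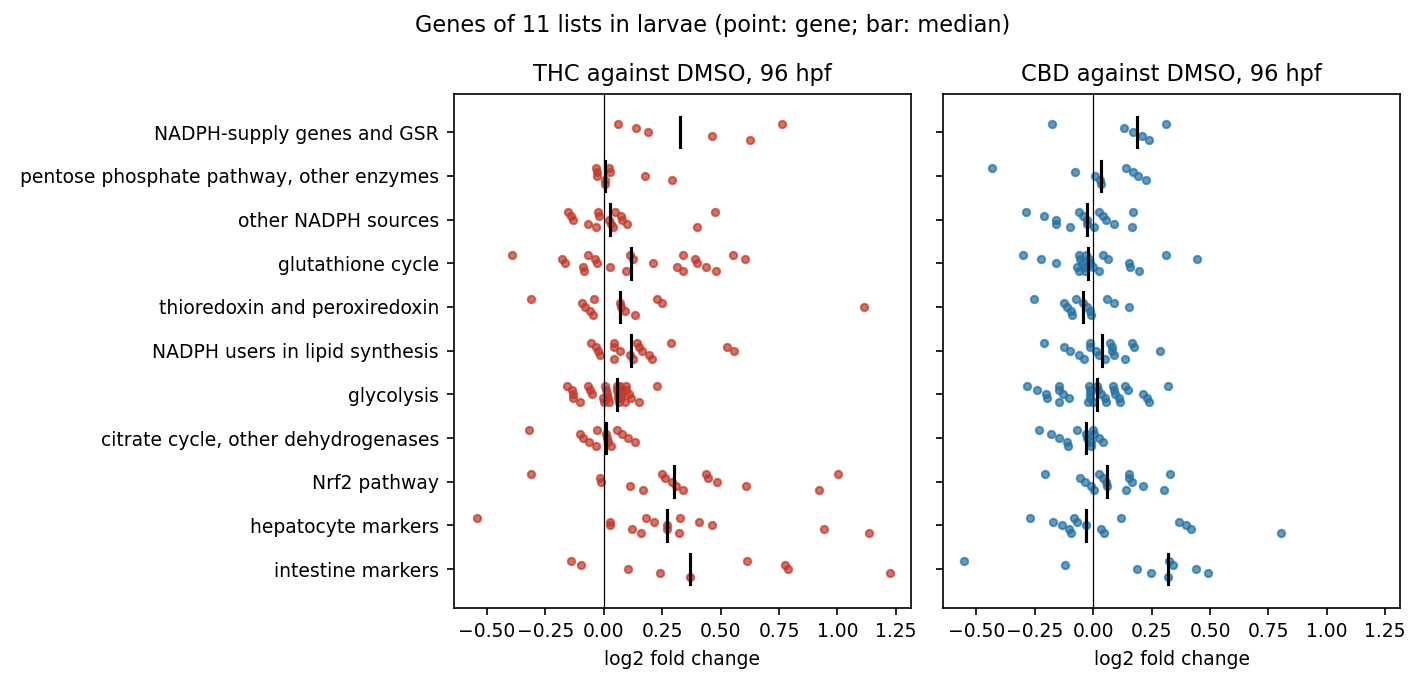
Fitted log2 fold change (x axis) of each tested gene in 11 lists (y axis) for THC (left) and CBD (right) against DMSO at 96 hpf, with black bars at list medians. With THC the medians of the genes described here, the Nrf2 pathway, the hepatocyte and the intestine markers lie between 0.27 and 0.37, and those of the other lists between 0.01 and 0.12.

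At 10 hpf, near the end of gastrulation, none of the 6 genes separated any pair of treatment groups. *PGD* stood at 34.3, 60.2, 59.2 and 100.0 CPM in DMSO, at 32.4, 55.6, 55.0 and 59.1 CPM with THC and at 27.1, 60.8, 110.0 and 59.5 CPM with CBD. Library 1 was the lowest of its group in all 3 treatments. The highest values were those of the shallow DMSO library 4, where *PGD* rests on 14 counts, and of CBD library 3. That CBD library held 20212 genes with a count, against 23229 to 24707 in the other deep embryo libraries. Its high level was raised by the scaling. *PGD* had 994 of 15307666 counts there, and 1125 of 18757444 counts at 60.8 CPM in CBD library 2. DMSO library 4 and CBD library 3 were left out together after their values were seen. Without these 2 libraries the means were 51.2 ± 14.7 CPM in DMSO and 49.1 ± 19.1 CPM in CBD (SD, n = 3), against 63.4 ± 27.2 and 64.4 ± 34.2 CPM with them (SD, n = 4).

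Some embryo libraries differed in markers of developmental time. The early factor *nanog* was low in DMSO library 1 (9.41 CPM), CBD libraries 1 and 2 (10.03 and 10.98 CPM) and THC library 4 (10.2 CPM). Its range over the remaining deep libraries was 69.7 to 200.3 CPM. The muscle factor *MYOG* was at 3.29 and 7.44 CPM in library 1 of DMSO and of CBD, which were low for *PGD*, and at 0 in THC library 1, which was low for *PGD* as well. CBD library 2 and THC library 4, also low for *nanog*, were not low for *PGD*, at 60.8 and 59.1 CPM. The part of developmental time in the values of *PGD* was not tested.

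*TALDO1* stood at 145.8, 95.9, 101.4 and 92.8 CPM in DMSO, at 100.6, 86.7, 86.3 and 128.2 CPM with THC and at 154.9, 142.7, 129.6 and 121.0 CPM with CBD. The CBD libraries were in the upper part of the range and overlapped both other groups through DMSO library 1 and THC library 4. Those 2 libraries and CBD libraries 1 and 2 are the 4 deep libraries low for *nanog*. Among the deep libraries with more *nanog*, CBD libraries 3 and 4 stood at 129.6 and 121.0 CPM, THC libraries 1 to 3 at 86.3 to 100.6 CPM and DMSO libraries 2 and 3 at 95.9 and 101.4 CPM. The value of CBD library 3 was raised by the scaling. It rests on 1171 of 15307666 counts, while DMSO library 2 had 1797 of 18228435. The part of developmental time in the values of *TALDO1* was not tested. Against THC the log2 difference was 0.45 (interval 0.02 to 0.88), with an unadjusted p of 0.0433 and an adjusted p of 0.542 in edgeR. Limma voom with a quality weight per library gave it an adjusted p of 0.0286. Against DMSO it was 0.31 (interval -0.13 to 0.75, adjusted p = 0.824 by edgeR).

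*IDH1* ranged over 99.4 to 121.8 CPM in DMSO, 102.0 to 114.2 in THC and 78.3 to 131.3 in CBD, and *GSR* over 14.3 to 23.6, 15.6 to 22.1 and 15.4 to 23.02 CPM. These groups lay on top of one another. *GSR* rests on 2 counts in the shallow DMSO library. *TKT* had 0 to 24 and *ME1* 0 to 17 counts in an embryo library, and 3 counts, the floor of detection used here, were worth 0.101 to 0.202 CPM in the 23 deep libraries. *TKT* was at 0 counts in CBD libraries 1 and 2 and in the shallow library, and *ME1* was too low to be tested between treatments.

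In the embryos 0 of 17595 genes (0%) passed in edgeR for any of the 3 pairs, with 49 genes at an unadjusted p under 0.05 for THC against DMSO, 952 for CBD against DMSO and 1601 for CBD against THC. DESeq2 called 0 genes in each, and voom 0, 428 and 719. Of the 6 genes 0 had groups that did not overlap, against 1.32%, 2.23% and 4.52% of all genes in either direction. The intervals are wide. For *PGD* the log2 difference between THC and DMSO was -0.21 with an interval from -1.07 to 0.66, and for *GSR* it was -0.13 with an interval from -0.62 to 0.36. Whether the effect of THC differs between the stages was not tested.

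**Figure D5:**
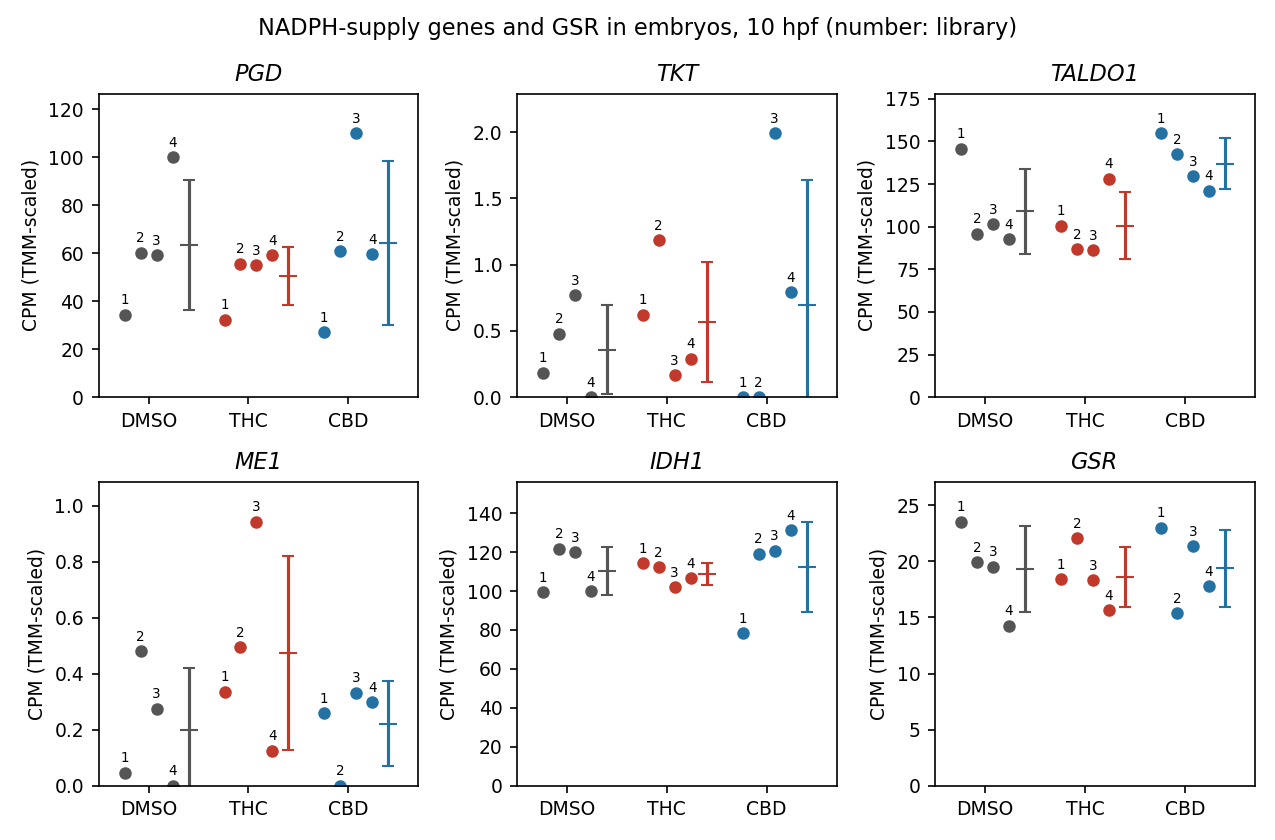
Level in CPM (y axis, from 0) of the 6 genes in the 12 embryo libraries by treatment (x axis). Numbered points are libraries, and bars are the mean ± SD of 4, ended at 0 where they would pass it. All groups overlap for every gene, *PGD* is lowest in library 1 of each group, and *TKT* and *ME1* are near 0.

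Between the stages of the DMSO group, *TKT* and *ME1* differed most. With all 24 libraries scaled together, *TKT* rose from 0.389 ± 0.367 CPM at 10 hpf to 55.7 ± 15.8 CPM at 96 hpf (SD, n = 4), a log2 fold change of 6.76 (SE 0.817, adjusted p = 1.33e-07 by edgeR). *ME1* rose from 0.217 ± 0.241 to 7.496 ± 1.99 CPM, by 4.70 (SE 0.619, adjusted p = 4.7e-07 by edgeR). For both, all larval libraries were above all embryo libraries, and the calls held under each alternative tried. In the shallow DMSO library of 10 hpf, 3 counts were worth 23.8 CPM, more than *ME1* reached in any DMSO larval library. Its 0 counts of *ME1* therefore cannot show a difference, and the calls also held without this library. Of the 6 genes 2 were called higher and 1 lower, against 42.7% and 34.4% of the 22741 genes tested (77.1% in all), so that a call between the stages is common.

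The other 4 genes had levels at 10 hpf that were of the same order as at 96 hpf. The means at 10 and 96 hpf were 67.6 ± 27.5 and 56.0 ± 3.59 CPM for *PGD*, 118.5 ± 14.996 and 94.0 ± 3.97 CPM for *IDH1* and 20.8 ± 4.39 and 28.7 ± 3.60 CPM for *GSR* (SD, n = 4). The fitted differences were -0.14 (SE 0.299), -0.35 (SE 0.165) and 0.37 (SE 0.173), with adjusted p of 0.689, 0.0551 and 0.0578 in edgeR. *GSR* passed in 8 of 14 alternatives, with a higher level at 96 hpf in all 14, *IDH1* passed in 3 and *PGD* in 1. *TALDO1* was at 117.0 ± 27.5 and 82.9 ± 18.1 CPM, and its difference of -0.53 (SE 0.182) passed with an adjusted p of 0.0115 in edgeR, but it was 0.28 with DESeq2's size factors, and it passed in 4 of 14 alternatives.

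These 4 differences depend on how libraries of unlike stages are scaled. DESeq2's size factors moved the median log2 difference of all genes from 0.32 to 1.14 and the split of calls from 9717 higher and 7825 lower to 12510 higher and 4986 lower. With them *PGD* was at 0.69, *IDH1* at 0.47 (adjusted p = 0.0102 in edgeR) and *GSR* at 1.20 (adjusted p = 5.74e-06 in edgeR), so that the directions of *PGD*, *IDH1* and *TALDO1* turned. Relative to the median of all genes, *PGD*, *IDH1* and *TALDO1* were below it and *TKT* and *ME1* above it under both scalings, while *GSR* was close to it.

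Of the 9 other pentose phosphate enzymes 4 were higher and 5 lower at 96 hpf (all genes 42.7% and 34.4%), or 4 and 2 with DESeq2's size factors. With those factors 71.5% of all genes called were higher. *RPIA*, the ribose-5-phosphate isomerase between *PGD* and *TKT*, was called lower with both scalings (-1.48 and -0.66), and *RBKS*, a ribokinase, higher with both (3.45 and 4.26). Of the 16 other NADPH sources 9 were higher and 4 lower, or 11 and 2. *IDH2*, the mitochondrial relative of *IDH1*, stood at 111.4 ± 29.3 CPM at 10 hpf and 742 ± 95.96 CPM at 96 hpf (2.69, or 3.501 with DESeq2's size factors). *NADK*, a kinase that makes NADP, was at 32.2 ± 5.44 and 2.06 ± 0.331 CPM (-3.91, or -3.09). The other NAD kinases of the list did not share this fall, with 1.79 (or 2.61) for *NADK2* and -0.08 (or 0.75) for *nadkb*.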

How the data were processed

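The authors deposited raw counts of reads per gene, 1 table for each of 24 libraries, with whole values and no normalization. Per the labels' protocols, column-extracted RNA was treated with DNase, and TruSeq libraries gave paired reads. Per the submitters' processing notes, STAR, HTSeq, edgeR and GRCz11 were used, versions: not given in the sources used here. Paralogs and overlapping genes are less certain. Symbols covered 27000 of 35117 identifiers, no positions were used, and 0 rows named no gene.

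Each stage was fitted apart (12 libraries) and the stages of DMSO in a fit of all 24. Genes passed filterByExpr (minimum count 10, total 15), libraries were scaled by TMM, and groups were compared with edgeR 4.0.16 (quasi-likelihood F test, R 4.3.3), with Benjamini-Hochberg adjustment over all genes at 0.05. Intervals (95%) come from the SE and the total degrees of freedom of the test, residual and prior together. These were 14.0 for the larvae, 13.0 for the embryos and 22.5 for the stages. Alternatives were DESeq2 1.42.0, limma 3.58.1 (voom), other filters, the 8 libraries compared, a block, a term for larval libraries 1 and 2 against 3 and 4, and leaving libraries out. The fits were tested on simulated counts.

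The genes described and the 15 lists (202 symbols written, 173 matched) were chosen with earlier results of these data known. All 6 genes were named in every comparison. From each list, genes past the threshold were named, otherwise up to 3 with the smallest p, and by likeness to *PGD* and *GSR* the first 6. *H6PD*, *PGLS*, *IDH2*, *ME2*, *ME3*, *NNT*, *RPIA*, *RBKS*, *NADK*, *NADK2*, *nadkb*, *nanog* and *MYOG* fall outside this rule where named, chosen after values were seen. All 36 replicate pairs differed beyond sampling noise (lowest chi-square per degree of freedom 2.53). Floors cover counting error only.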

Additional observations from a re-analysis of the deposited data

Results flagged for a closer look

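Over 36 groups of 4 libraries (6 genes, 6 groups), 3 held a library whose gap to the nearest other, as a share of the range of its group, was above Dixon's 95% critical value for 4 samples. By that definition chance gives about 1 such group in 20. The shares were 0.847, 0.838 and 0.953 in the order below. *PGD* in THC library 1 of 10 hpf was at 32.4 CPM, with 55.0 to 59.1 CPM in the other 3 libraries. *TALDO1* in DMSO library 1 of 10 hpf was at 145.8 CPM, with 92.8 to 101.4 CPM in the others. *TALDO1* in CBD library 1 of 96 hpf was at 88.6 CPM, with 74.5 to 75.2 CPM in the others.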

How the results depend on the processing

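Over all alternatives, 518 of the gene values kept their direction and their side of the threshold, 17 passed anew, 17 no longer passed and 55 turned, 3 of them past the threshold. The larval differences of *PGD*, *GSR* and *IDH1* kept their sign under each alternative: for THC against DMSO they ranged over 0.54 to 0.67, 0.63 to 0.84 and 0.31 to 0.54. Nothing is read from the THC values, since the choice of the genes used that contrast.

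Genes called for THC against DMSO at 96 hpf were 11, and 54 by the DESeq2 Wald test, 18 with no filter, 1 with only the 8 libraries, 1 with the replicate number as a block and 1 to 31 on leaving out a library (31 without DMSO library 3, 14 without THC library 4, 1 or 2 without the others). For CBD against THC at 96 hpf they were 0, and 14 by the Wald test, 3 by voom, 1 with no filter, 3 with only the 8 libraries and 0 to 1 on leaving out a library (1 without THC library 3). At 10 hpf voom called 428 for CBD against DMSO and 719 for CBD against THC, and leaving out a library gave 0 to 4 and 0 to 14, the higher counts without CBD library 1. The cause was not tested.

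Same-numbered libraries deviated together in 7 of 12 pairs at 96 hpf (r -0.25 to 0.40) and in 4 of 12 at 10 hpf (r -0.55 to 0.65) at r over 0.1. Differently numbered libraries did so in 11 of 36 pairs at 96 hpf and in 13 of 36 at 10 hpf. The median r was 0.14 against -0.10 at 96 hpf and -0.0003 against -0.0048 at 10 hpf. Whether the numbers mark pairs was not tested, and the main fits held no block. The block turned the embryo values of *IDH1* for CBD against DMSO (-0.0026) and of *TKT* for CBD against THC (-0.53).

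Embryo values turned as follows. With voom *TKT* was at -0.084 for THC against DMSO, *PGD* at -0.024, *TKT* at -3.16 and *IDH1* at -0.015 for CBD against DMSO, and *GSR* at -0.24 and *TKT* at -3.08 for CBD against THC. *IDH1* for CBD against DMSO was at -0.0043 with DESeq2's size factors, -0.017 by the Wald test and -0.014 with no filter. Without DMSO library 4 and CBD library 3, *PGD*, *TKT* and *IDH1* were at -0.072, -0.86 and -0.065 against DMSO, and *PGD* and *TKT* at -0.045 and -1.11 against THC. Between the stages *PGD*, *TALDO1* and *IDH1* were at 0.69, 0.28 and 0.47 with DESeq2's size factors and 0.68, 0.27 and 0.45 by the Wald test, and *PGD* at 0.011 with a filter of 1 CPM in 4 libraries. Between the stages *TALDO1* passed in 4 of 14 alternatives and *GSR* in 8 of 14.

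Leaving out a library turned these values. For THC against DMSO at 96 hpf *TALDO1* ranged over -0.032 to 0.16 and *TKT* over -0.0093 to 0.34, and *ME1* for CBD against THC over -0.089 to 0.18. In embryos, for THC against DMSO, *TKT* ranged over -0.37 to 0.79, *TALDO1* over -0.28 to 0.047 and *IDH1* over -0.089 to 0.024. For CBD against DMSO, *GSR* ranged over -0.17 to 0.027, *IDH1* over -0.080 to 0.15, *PGD* over -0.20 to 0.41 and *TKT* over -0.84 to 0.96. For CBD against THC, *GSR* ranged over -0.039 to 0.15, *PGD* over -0.045 to 0.60, *TKT* over -1.11 to 0.82 and *IDH1* over -0.040 to 0.18. Between the stages *PGD* ranged over -0.35 to 0.12. Depth limits *TKT* and *ME1* at 10 hpf and every gene in the shallow DMSO library.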

Other observations

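Of 22 genes of the glutathione cycle, 11 were higher and 4 lower in DMSO larvae than in DMSO embryos, or 15 and 0 with DESeq2's size factors, by edgeR. Of all 22741 genes tested, 42.7% were higher and 34.4% lower, so that 11 of 22 is near the share of all genes. With DESeq2's size factors 71.5% of all genes called were higher, and nothing is read from the 15 and 0. The glutathione peroxidase *gpx9* was listed at 0 counts in the DMSO embryos and at 10.5 ± 1.62 CPM in the larvae (SD, n = 4). *CHAC1*, which breaks glutathione down, stood at 63.1 ± 14.8 CPM in embryos and 282.4 ± 23.4 CPM in larvae. The identifiers named *MTHFD1*, a folate enzyme that makes NADPH, moved in opposite directions: ENSDARG00000040492 was at 253.1 ± 55.7 CPM in embryos and 63.4 ± 11.8 CPM in larvae, and ENSDARG00000018266 at 0.253 ± 0.466 and 43.0 ± 15.3 CPM. The direction of both was the same with DESeq2's size factors (-1.20 and 7.70 on the log2 scale). These genes were chosen after their values were seen.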
